A study of Homo sapiens with 6 samples.

Results

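Translation factor genes with 5′ TOP mRNAs were examined in A375, an established human melanoma cell line. The 10 genes were taken as the rows of the deposited gene table whose symbol is EEF1A1, EEF1B2, EEF1D, EEF1G, EEF2, PABPC1, TPT1, EIF4B, EIF3E or EIF3F. All 10 had a row among the 28395 rows of the table. RNA was sequenced from wild-type A375 cells kept for 6 h with 0.01% olive oil (OLO, 3 libraries) or with 0.01% ozonated olive oil (OZO, 3 libraries), and both groups shared the same serum-containing medium. The table holds 1 measured level per gene, the authors' mean log2 CPM (counts per 1e6 counted fragments, after their scaling) over all 6 libraries, beside the authors' own comparison of OZO with OLO, which was not used. Values per library or per group were not analysed here, so each level below is an average over treated and control cells, with no spread between libraries, and no difference between OZO and OLO is given. The labels do not say whether the libraries of a group came from separate cultures, while the study describes its A375 expression data as coming from independent experiments.

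Translation factors deliver aminoacyl-tRNA to the ribosome, move it along the mRNA, and load the small subunit onto the mRNA. Together with ribosomal protein genes, many of them begin their mRNA with a 5′ terminal oligopyrimidine (TOP) motif, a cytosine at the first base followed by an unbroken run of pyrimidines. Through this motif the kinase mTORC1 and the cap-binding protein LARP1 adjust translation of the whole class to growth conditions. TOP control acts mainly on translation, which mRNA levels do not measure.

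The starts of these genes are shown first because the TOP motif is what defines the class. RefSeq promoter sequences (GRCh38.p14, a release of the assembly GRCh38 that hg38 denotes) were matched for 7 of the 10 genes. EEF1D, EIF3E and PABPC1 had no entry. Each line gives 30 bases on the strand of the gene, 10 before the annotated start and 20 from the start on, and capitals mark the pyrimidine run counted from the C at the start, with any pyrimidines directly before the start left in lower case. EEF1B2 has 2 annotated starts.
EEF1A1: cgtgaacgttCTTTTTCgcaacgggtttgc
EEF2: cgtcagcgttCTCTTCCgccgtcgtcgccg
TPT1: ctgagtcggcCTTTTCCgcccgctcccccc
EIF4B: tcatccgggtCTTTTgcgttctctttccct
EIF3F: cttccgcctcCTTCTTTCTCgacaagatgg
EEF1B2, downstream start: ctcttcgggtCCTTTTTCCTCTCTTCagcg
EEF1B2, upstream start: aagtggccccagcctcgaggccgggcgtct
EEF1G: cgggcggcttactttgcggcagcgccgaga

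The windows lie at chr6:73521013-73521042 on the minus strand for EEF1A1, chr19:3985444-3985473 on the minus strand for EEF2, chr13:45341164-45341193 on the minus strand for TPT1, chr12:53006446-53006475 on the plus strand for EIF4B and chr11:7987327-7987356 on the plus strand for EIF3F. Those of EEF1B2 lie at chr2:206159885-206159914 and chr2:206159599-206159628 on the plus strand, and that of EEF1G at chr11:62573872-62573901 on the minus strand.

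The motif searched was a C followed by at least 4 bases that are each C or T, on the strand of the gene. In 6 of the 7 matched genes it began exactly at the annotated start, base +1. Counted from +1, the run was longest at the downstream start of EEF1B2, with 16 pyrimidines, followed by EIF3F with 10. EEF1A1, EEF2 and TPT1 each had a run of 7, and EIF4B had the shortest, 5. At each of these 6 starts pyrimidines also stand directly before +1, from 1 base to the 4 of EIF3F, so that the unbroken stretch is longer than the run counted. The upstream start of EEF1B2, 286 bases before the other, carried no such run within 10 bases, and neither did EEF1G, whose annotated start begins with an A. For comparison, 4.07% of all 35116 promoter entries, and 5.14% of the 27305 genes they belong to, had the motif at +1, while within 10 bases of the start 32.5% of entries had it. Because the genes were listed for their known TOP mRNAs, their runs describe the list and are not a finding about it. A missing match says only that these letters are absent from the annotated window.

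**Figure D1:**
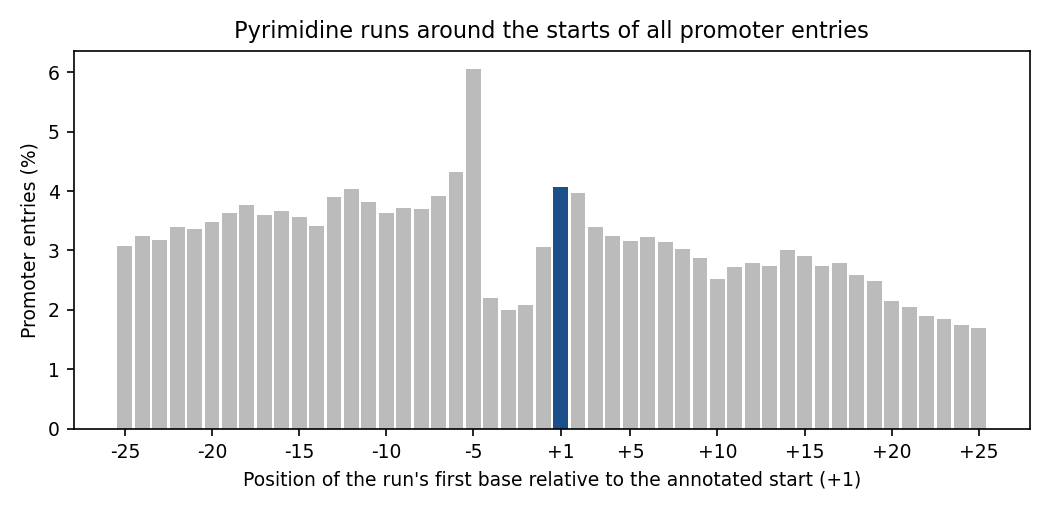
Percentage of the 35116 RefSeq promoter entries in which the motif (a C followed by at least 4 pyrimidines) begins at each position from 25 bases before to 25 bases after the annotated start, with +1 in blue. The +1 position reaches 4.07%, against a median of 3.17% over the other 49 positions and a highest value of 6.06% at position -5.

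Levels of genes with and without the motif were set side by side, with no test. Among genes with at least 10 reads on average, a transcript length and a promoter entry, 787 had the motif at +1, with a median level of 3.38 log2 CPM per kb (quartiles 1.47 and 5.15). The 9912 genes without it had a median of 2.94 (quartiles 0.99 and 4.41). The 6 listed genes with the motif at +1 ranged from 4.21 to 11.23 log2 CPM per kb, with a median of 8.21.

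Levels between genes are compared per transcript length, as mean log2 CPM minus log2 of the length in kb of the MANE Select transcript, the single transcript per gene on which RefSeq and Ensembl concur. The mean number of reads per library was implied from the recovered geometric mean library size, given with the processing. It is a geometric mean over the 6 libraries, counted in fragments, and is at most their arithmetic mean. Over the 13313 genes with at least 10 reads on average and a known length, the median level was 2.89 log2 CPM per kb. Of the 10 genes, 8 lay in the top 2% of these genes, 1 lay above the median but outside the top 10%, and 1 lay below the median. The median of the 10 was 8.21, and the highest was 646 times the lowest on the linear scale. That ratio rested on the lengths used and was 786 with the longest annotated transcript, 1013 with the union of all exons and 1520 with the coding length.

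**Figure D2:**
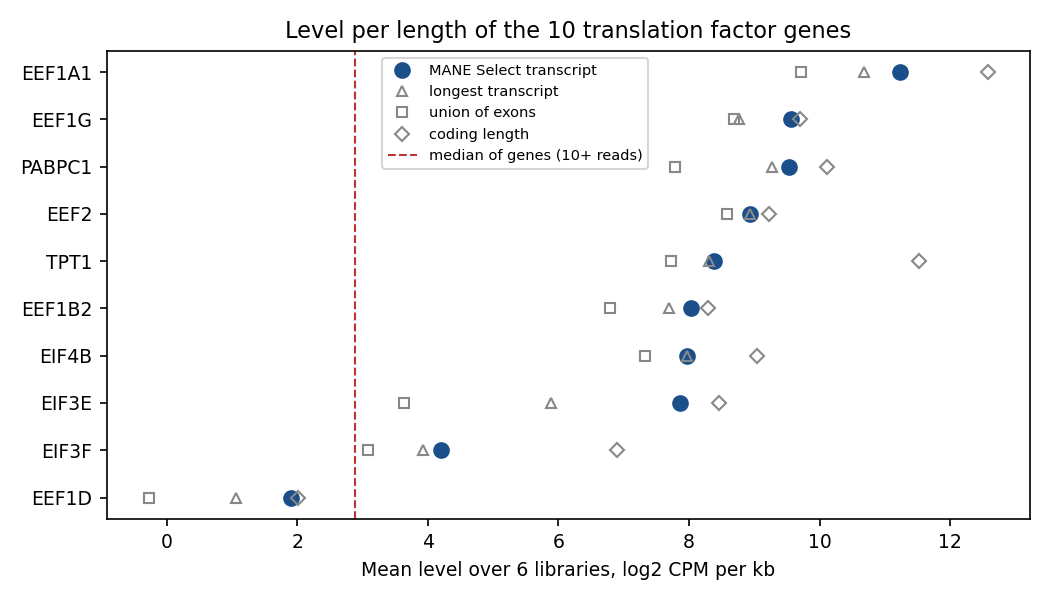
Mean level of each of the 10 genes over the 6 libraries in log2 CPM per kb, with filled circles for the MANE Select transcript length and open markers for the other 3 ways to measure length. The dashed line is the median of genes with at least 10 reads (2.89, MANE Select lengths), and under each way EEF1A1 is the highest, EIF3F the second lowest and EEF1D the lowest.

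The elongation factors came first. EEF1A1 (chromosome 6, 73515750 to 73521032), the GTPase that brings aminoacyl-tRNA to the ribosome, had the highest mean log2 CPM of all 28395 genes, 13.05, which is an implied 155594 reads per library. It took 51.2% of the summed CPM of the 10 genes. Per length its level was 11.23 log2 CPM per kb, rank 12 of the 13313 genes. EEF2 (chromosome 19, 3976056 to 3985463), the GTPase that moves the ribosome by a codon, had a mean of 10.59 log2 CPM and a level of 8.93 log2 CPM per kb. EEF1A1 was thus 4.93 times EEF2 per length, and 3.37, 2.19 and 10.2 times with the longest transcript, the union of exons and the coding length. EEF1A2, the paralog of EEF1A1 known from muscle and neurons, had only 3.22 log2 CPM per kb, 259 times less than EEF1A1, and from 246 to 514 times less with the other lengths.

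The remaining elongation factors of the list are subunits of the exchange complex that reloads EEF1A1 with GTP, and their levels were far apart. EEF1G (chromosome 11, 62559596 to 62573891), the scaffold subunit, had a mean of 10.09 log2 CPM, an implied 20057 reads, and a level of 9.56 log2 CPM per kb. EEF1B2 (chromosome 2, 206159609 to 206162928), an exchange subunit, had a mean of 7.73 log2 CPM, an implied 3901 reads, and a level of 8.04 log2 CPM per kb. EEF1D (chromosome 8, 143579728 to 143597415), the other exchange subunit, had a mean of 2.96 log2 CPM, an implied 143 reads, and a level of 1.90 log2 CPM per kb. EEF1G was 2.87 times EEF1B2 per length, and EEF1B2 was 70.4 times EEF1D, or 133 times with the union of exons. With rank 8498 of 13313, EEF1D was the single gene of the 10 below the median of all genes. The counting error of EEF1D was 0.097 on the log2 scale (to each side, 95% Poisson interval over the implied reads of 6 libraries). It is small beside these distances, although it covers counting alone. Copies of these genes elsewhere in hg38, described below, leave their levels and ratios uncertain.

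PABPC1 (chromosome 8, 100702916 to 100722088), the cytoplasmic poly(A)-binding protein that bridges the mRNA tail to the initiation complex, had a mean of 11.05 log2 CPM and an implied 38905 reads. Its level per length of 9.53 log2 CPM per kb stood next to that of EEF1G, only 0.029 below it. Of the other poly(A)-binding protein genes, PABPC4 was nearest, at 7.47 log2 CPM per kb, so that PABPC1 was 4.18 times higher, or 8.13 times with the longest transcripts. PABPC1L (4.10), PABPN1, the nuclear form (2.28), PABPC3 (-1.31) and PABPC5 (-2.16) were lower still in log2 CPM per kb.

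TPT1 (chromosome 13, 45333471 to 45341183), which encodes the translationally controlled tumour protein TCTP, had a mean of 10.57 log2 CPM and an implied 28031 reads. Per length of its MANE Select transcript, 4548 bases, it reached 8.39 log2 CPM per kb. Per coding length it was the second highest of the 10, at 11.53 log2 CPM per kb.

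The 3 initiation factors differed from each other. EIF4B (chromosome 12, 53006456 to 53042215), which assists the helicase eIF4A in unwinding mRNA leaders, had a mean of 9.91 log2 CPM, an implied 17744 reads, and 7.97 log2 CPM per kb. EIF3E (chromosome 8, 108201216 to 108248717), a subunit of the scaffold eIF3 on the small ribosomal subunit, had a mean of 8.87 log2 CPM, an implied 8625 reads, and 7.86 log2 CPM per kb. EIF3F (chromosome 11, 7987337 to 8001852), another eIF3 subunit, had a mean of 6.997 log2 CPM, an implied 2351 reads, and 4.21 log2 CPM per kb. Per length EIF3E was second and EIF3F thirteenth among 14 EIF3 genes, between EIF3I at 8.02 and EIF3CL at 3.65 log2 CPM per kb. EIF3C (4.23) and EIF3CL, next above and next below EIF3F, have uncertain levels themselves. An exact copy elsewhere on a primary chromosome exists for 432 of the 150-base windows of each of these 2 transcripts, 15.6% of all. Only 444 windows of EIF3C and 447 of EIF3CL fall inside a single exon, and a window across an exon junction can match only a copy without the intron. The MANE Select transcript of EIF3F spans 6920 bases, and with its coding length in place of it EIF3F had 6.90 log2 CPM per kb. EIF3E rose to 8.46 with its coding length. With the longest annotated transcript both were lower, EIF3E at 5.88 and EIF3F at 3.92 log2 CPM per kb, and EIF3E was then eleventh among the 14 genes, as it was with the union of exons.

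In the order of levels per length, EEF1A1 was followed by EEF1G, PABPC1, EEF2, TPT1, EEF1B2, EIF4B, EIF3E, EIF3F and EEF1D. The steps between EEF1G and PABPC1 (0.029), EEF1B2 and EIF4B (0.070) and EIF4B and EIF3E (0.11) were the smallest on the log2 scale. The largest step, 3.65, separated EIF3E from EIF3F with MANE Select lengths. With the longest transcript, the union of exons and the coding length that step was 1.96, 0.56 and 1.56, and the largest step was instead that between EIF3F and EEF1D, at 2.85, 3.35 and 4.89 on the log2 scale. Without values per library it is not known which neighbours differ beyond the spread between libraries. The order also moved with the length used, as only 5, 6 and 4 of the 10 genes kept their place with the longest transcript, the union of exons and the coding length.

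The rest of the translation machinery was then placed beside the 10 genes. Of 50 other genes listed under elongation, initiation, release and poly(A) binding, with at least 10 reads, none was above EEF1A1, EEF1G or PABPC1 per length, and 1 was above EEF2. That gene was EIF5A, the hypusine-containing factor that resolves stalled ribosomes, at 9.13 log2 CPM per kb. The places given hold for MANE Select lengths, and EIF4A1, with no counted read, was not among the 50. With the longest transcript EIF5A was also above EEF1G, with the union of exons EIF5A and EIF1 were above PABPC1, and with the coding length 2 of the 50 were above PABPC1 and 3 above EEF1G. None was above EEF1A1 under any of the 4 lengths. EIF3F had 39 of the 50 above it, and EEF1D had 47. The median was 2.95 log2 CPM per kb over the 6 other genes listed under elongation, from 2.24 in EEFSEC, the selenocysteine factor, to EIF5A. These 6 are EEF1A2, EEF1E1, EEFSEC, EIF5A, EIF5A2 and EEF2K, of which EEF2K is a kinase of EEF2 and not itself an elongation factor. Over the 12 other EIF3 genes the median was 7.02. The 9 genes of the EIF4 group with at least 10 reads had a median of 6.52, from -0.43 in EIF4E3 to 8.75 in EIF4G2. Over 18 other initiation and release factors it was 6.19, from 3.31 in EIF2B2 to 8.47 in EIF1.

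EIF4A1, the helicase that EIF4B assists, was listed at the lowest value of the table, -5.20 log2 CPM, which 7012 rows share and which stands for no counted read in any library. A gene with the joined symbol SENP3-EIF4A1 has its own row, at -0.07 log2 CPM and an implied 17.1 reads. The value of EIF4A1 is therefore not read as an absence of its mRNA. Whether its reads were shared with the joined gene and left uncounted depends on the annotation used in counting and was not tested. EIF4A2, the paralog of EIF4A1, had 8.19 log2 CPM per kb.

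Genes known to act on TOP mRNAs all had at least 10 reads, at levels that were far apart. The 9 listed had a median of 4.41 log2 CPM per kb, from 2.52 in RPTOR, the mTORC1 subunit that recruits substrates, to 7.24 in CNBP, a nucleic acid-binding protein. RPTOR lay below the median of all genes, 2.89, and CNBP had rank 369 of the 13313 genes. LARP1 had a mean of 8.37 log2 CPM and MTOR one of 7.04. None of the 8 with a promoter entry had the motif at +1. Outside the list, EIF3D, EIF3K and EIF3M did among 7 matched EIF3 genes, EIF4A2 among 10 matched genes of the EIF4 group, and EIF2A and EIF2S3 among 17 matched initiation and release factors. None of the 5 matched other genes listed under elongation did.

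**Figure D3:**
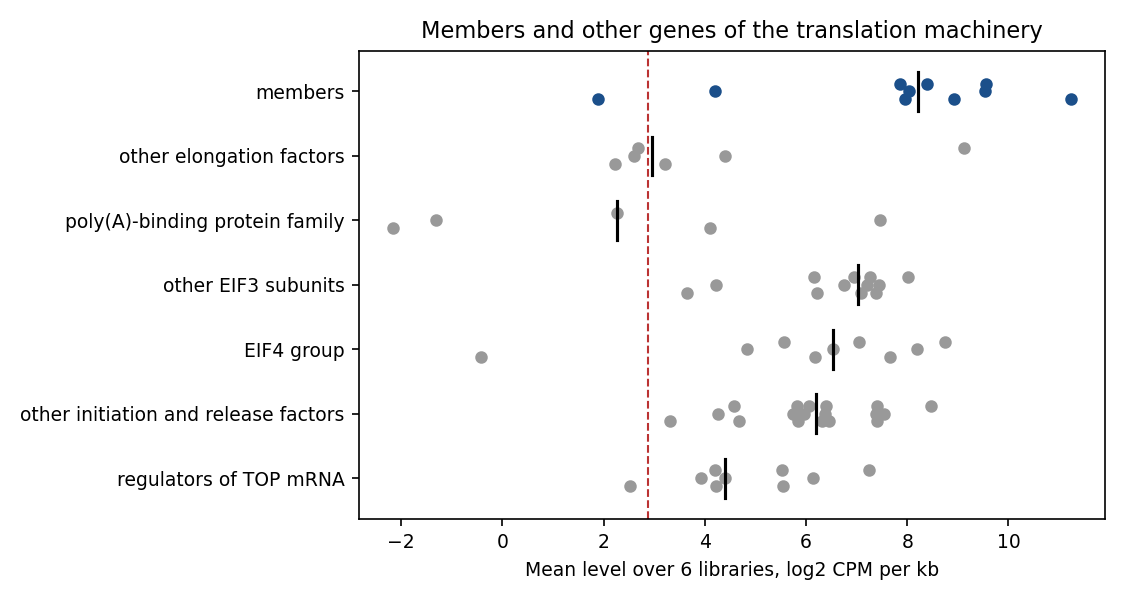
Mean level over the 6 libraries in log2 CPM per kb of the 10 genes (blue) and of the other translation lists (grey), 1 point per gene with at least 10 reads, with black bars for list medians and a dashed line for the median of all such genes (2.89). The 10 genes have the highest list median, 8.21, and 2 points far below it, EIF3F at 4.21 and EEF1D at 1.90.

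Several of the 10 genes have near-identical copies in the genome, between which the authors' counting could split or drop reads. RefSeq names 117 pseudogenes after them, of which EEF1A1 alone has 50, and 2 have a row in the table, EEF1DP3 with an implied 1.69 reads and PABPC1P2 with 0.35. As a measure of copies, every window of 150 bases, the length of a read, along the MANE Select transcript was looked up on both strands of hg38. A window across an exon junction can match only a copy without the intron, so copies that keep introns are undercounted. On another position of a primary chromosome an exact copy was found for 49.2% of the windows of EEF1G, 30.9% of EEF1A1, 22.0% of EEF1B2, 12.8% of EIF4B, 6.57% of EIF3E and 3.53% of EIF3F. EEF2, PABPC1, TPT1 and EEF1D had no such window. Of 60 other listed translation genes, 10 had any. The levels of the 6 genes with such windows are therefore uncertain. EEF2, PABPC1 and TPT1 had no exact copy of this length anywhere else in hg38. Of windows of 50 bases, however, 17.7% in PABPC1 and 2.22% in TPT1 had one, and copies with mismatches were not searched.

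EEF1D differed from the others in where its copy lies. On 1 of the 261 alternate sequences of hg38, which give other versions of a region already in the primary chromosomes, there was an exact copy of 1067 windows of EEF1D, or 55.0%. These were 100% of the 1067 windows that fall inside a single exon. No window of the other 9 genes or of the 60 other genes had a copy there. EEF1D is also the gene with the lowest level. Like the levels of the genes with copies on primary chromosomes, that level is uncertain, and it is not read as a low level of its mRNA. Whether the alternate sequences were part of the authors' alignment is not given in the sources used here, and the part of this copy in the level of EEF1D was not tested.

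**Figure D4:**
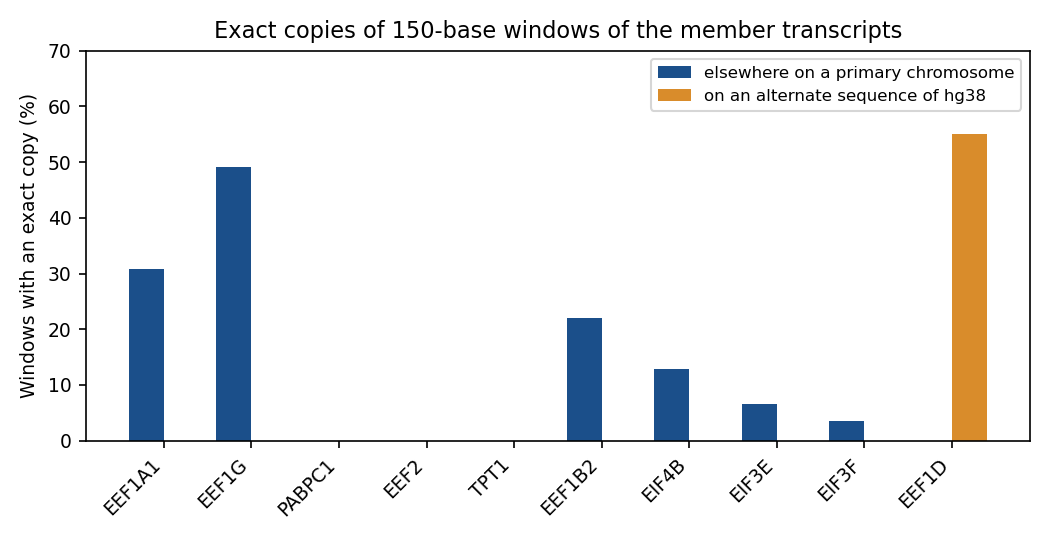
Percentage of all 150-base windows of each gene's MANE Select transcript with an exact copy elsewhere on a primary chromosome (blue) or on an alternate sequence (orange) of hg38, with genes in the order of their level per length. EEF1D, at the right, is the only one with an orange bar (55.0%), and EEF1G has the highest blue bar (49.2%).

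Of the genes annotated inside these loci, those with a row in the table had few reads. Among snoRNA genes, SNORA31 in TPT1 had an implied 13.5 reads, SNORA41 and SNORD51 in EEF1B2 had 7.37 and 5.05, and SNORD37 in EEF2 had 3.61. TNS2-AS1, an antisense RNA that overlaps 462 exonic bases of EIF4B on the opposite strand, had an implied 47.0 reads, against 17744 for EIF4B. The kit keeps strand information, but its use in counting is not stated. MIR6747 in EEF1G had an implied 1.46 reads, and MIR7705 in PABPC1 was at the lowest value of the table. Another 5 overlapping genes of GENCODE 44 were not matched to a row, so that no reads are known for them. Among them is ENSG00000255508, annotated as protein-coding on the strand of EEF1G, whose exons share 1439 bases with those of EEF1G, where the MANE Select transcript has 1446. Whether reads of EEF1G were affected by it depends on the annotation used in counting and was not tested. The others are SNORA31B, which shares 134 exonic bases with TPT1 on the same strand, and on the opposite strands of TPT1 and EEF1D 3 genes that have no symbol.

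The label of the cells was checked against lineage markers. Of 6 melanocyte lineage genes, SOX10 (5.64 log2 CPM), MITF (4.76) and MLANA (1.01) had at least 10 reads, whereas PMEL (-1.56), DCT (-1.81) and TYR, at the lowest value, did not. Of the markers of other cell types, KRT14 had 2.08, COL1A1 0.31, PECAM1 0.12, KRT5 -3.16 and PTPRC -3.55 log2 CPM. Of the defining pigment genes, TYR had no counted read, while DCT, PMEL and MLANA had an implied 4.74, 5.75 and 36.6 reads.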

How the data were processed

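Per the labels and the study's methods, the authors aligned paired reads to hg38 with HISAT2 2.1.0, counted them per gene with featureCounts 2.1.1 and ran limma-voom 3.58.1. The deposited table holds that comparison (fold change, t, p-value, adjusted p-value and B, 5 columns, none used) and each gene's mean log2 CPM, made by the authors from all 6 libraries with 0.5 reads added per count (voom). The study's methods also name a UCSC hg38 annotation with StringTie 1.3.4d and TPM for transcript expression. For the counting and limma-voom steps, normalization, strand use and annotation are not given in the sources used here. No filter is named either, and 7012 genes with no counted read kept a row. The planned test of OZO against OLO was not run, since no value per library was analysed. Library size was recovered from the lowest mean, that of genes with no read. Of the 11518 lowest means, 100% gave an odd whole number (tolerance 0.02) as the product over 6 libraries. For the 7012 at the lowest mean itself this was fixed in advance. The geometric mean size was 18409903 fragments. Single library sizes are unknown. Lengths came from GENCODE 44 (25497 rows matched by Ensembl identifier) and coordinates from RefSeq GRCh38.p14. Ranks need 10 reads. Genes named are the 10, their paralogs, overlapping genes and pseudogenes with a row, and the highest and lowest of each list. EIF4A1, SENP3-EIF4A1, EIF3I, EIF3C, genes named for the motif and the copy counts were chosen after values were seen. The 10 genes and the lists were chosen with earlier results of these data known. Procedures were tested on simulated data (Python 3.11.15, NumPy 2.4.6, pandas 2.3.3, Numba 0.67.0).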

Additional observations from a re-analysis of the deposited data

How the results depend on the processing

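No paired analysis was possible because the table holds no value per library. For the same reason the alternatives of filter, replicate block, DESeq2 and leaving out replicates were not run. The median level of the 10 genes, 8.21 log2 CPM per kb, became 8.14 with the longest transcript, 7.52 with the union of exons and 9.13 with the coding length, the last chosen after seeing the data. These shifts follow from the lengths themselves, and the medians of all genes moved to 2.68, 2.16 and 4.21. Of the 10 single levels, 8, 10 and 10 moved by more than counting error, which does not measure a shift of this kind. EEF2 and EIF4B stayed with the longest transcript, as it has the length of their MANE Select transcript. EEF1D stayed lowest throughout, at 1.07, -0.27 and 2.005, and the number of the 10 genes in the top 10% was 8, 7 and 8. The count of 6 genes with a pyrimidine run held at +1 and within 5 bases, became 7 within 25 bases, where EEF1G joined, and 3 when at least 7 pyrimidines were required after the C, TPT1 among them by a run that begins just before the start. Genes with a copy on a primary chromosome numbered 6, 7 and 9 with windows of 150, 100 and 50 bases, and those with a copy on an alternate sequence 1, 1 and 2, EIF3F joining with 0.073% of its windows of 50 bases. Ranks by mean log2 CPM were the same among all genes, which is fixed in advance for genes above the minimum of 10 reads. Among protein-coding genes they stayed within 1.5 times. How far 1 library decides any level is unknown.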
